A study of Mus musculus with 6 samples.

Results

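The miR-190 family was described by sequencing of small RNA in prefrontal cortex from aged mice with postoperative neurocognitive disorder (PND) and of control (CON) mice. Its members were the 3 rows mmu-miR-190a-5p, mmu-miR-190a-3p and mmu-miR-190b-5p (the prefix for mouse is left out from here on), chosen by name from the 1189 entries listed for each library. The choice was made with the PND against CON values of miR-190a-5p already known, so the differences between the groups are given as a description, without a test. All mice were 18-month-old male wild type C57BL/6 mice, although the sample titles carry 17 months. The 3 mice of the PND group breathed 1.5% isoflurane for 30 min and then had an exploratory laparotomy of 30 min under isoflurane, with lidocaine cream and povidone iodine on the wound. The 3 mice of the CON group had neither, so anesthesia, operation and wound care cannot be told apart in this design. According to the study's methods, both groups had fear conditioning, open field and Barnes maze tests before the tissue was taken under deep isoflurane anesthesia and the mice were perfused with saline. There was 1 library per mouse, with between 14849461 and 19471226 reads on miRNAs, and levels are reads per 1000000 of these reads (CPM).

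A miRNA is cut from a hairpin precursor that has a 5p and a 3p arm, and as a rule one arm is loaded into an Argonaute protein while the other is degraded. Bases 2 to 8 of the loaded arm, the seed, pair with target mRNAs and lower their translation or stability. miR-190a lies in an intron of Tln2, the gene of talin-2, a large adaptor that links integrins to actin and is made in brain and muscle. Intronic miRNAs can be transcribed together with their host gene. In neurons miR-190a is known as a repressor of the transcription factor gene Neurod1.

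The mature sequences are those of RefSeq for the build GRCm38.p6, 5′ to 3′, with the seed in capitals. They are shown because the 5p arms share a seed.
miR-190a-5p: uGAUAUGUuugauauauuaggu
miR-190b-5p: uGAUAUGUuugauauuggguug
miR-190a-3p: aCUAUAUAucaagcauauuccu

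miR-190a-5p and miR-190b-5p share their first 15 bases, and no other listed entry with a RefSeq sequence had their seed. From position 16, counted from 1 at the 5′ end of miR-190a-5p, all 7 remaining positions differ, as A16U, U17G, U18G, A19G, G20U, G21U and U22G. The authors kept reads of 18 to 40 nt, and a read of 18 nt from the first base covers 3 of these positions. The number of mismatches they allowed is not given in the sources used here, so an exchange of reads between the paralogs was not tested. miR-190a-3p has a seed of its own. Of the 22 bases of miR-190a-5p, 17 are A or U.

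The Mir190a hairpin lies on chromosome 9 of GRCm38 from 67236660 to 67236726 on the minus strand, the strand of Tln2. In GENCODE release M21 it falls in an intron of 11222 bp, intron 53 of the transcripts of Tln2 with 58 exons, and in no exon. The miR-190a-5p sequence runs from 67236700 to 67236721 and the miR-190a-3p sequence from 67236664 to 67236685. The Mir190b hairpin lies on chromosome 3 from 90070020 to 90070099 on the plus strand, outside other annotated genes. It is 1672 bp from 4933434E20Rik and 2549 bp from Tpm3, a tropomyosin gene.

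miR-190a-5p was the main product of the family. Its level was 9.04, 13.1 and 28.7 CPM in PND mice 1 to 3 and 8.64, 2.83 and 11.4 CPM in CON mice 1 to 3. PND mouse 3 was the highest and CON mouse 2 the lowest, with a 10.2-fold range, and the other 4 mice lay between 8.64 and 13.1 CPM. The groups overlapped, because PND mouse 1 was below CON mouse 3. These levels rest on 42 to 509 reads per library, and miR-190a-5p ranked between 272 and 424 among the 1189 entries. The exact (Clopper-Pearson) 95% intervals were 26.3 to 31.3 CPM for PND mouse 3 and 2.04 to 3.82 CPM for CON mouse 2, and neither met the interval of any other mouse. These intervals cover counting error only.

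miR-190a-3p, the other arm of the same hairpin, was rare. It had 6, 2 and 10 reads in PND mice 1 to 3, which is 0.308, 0.114 and 0.565 CPM. It had 13, 2 and 2 reads in CON mice 1 to 3, which is 0.851, 0.135 and 0.124 CPM. In 3 of the 6 libraries it was under the detection floor of 3 reads (0.154 to 0.202 CPM), and its highest value was in CON mouse 1. The groups overlapped.

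miR-190b-5p, the paralog with the shared seed, lay between the arms of miR-190a in 5 of the 6 mice, and in CON mouse 1 it was below both. Its level was 0.822, 1.87 and 1.69 CPM in PND mice 1 to 3, from 16, 33 and 30 reads. In CON mice 1 to 3 it was 0.786, 1.08 and 1.43 CPM, from 12, 16 and 23 reads. The lowest mouse of each group was mouse 1, the range was 2.39-fold, and the groups overlapped. CON mouse 2, which had the least miR-190a-5p, was not the lowest for miR-190b-5p.

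**Figure D1:**
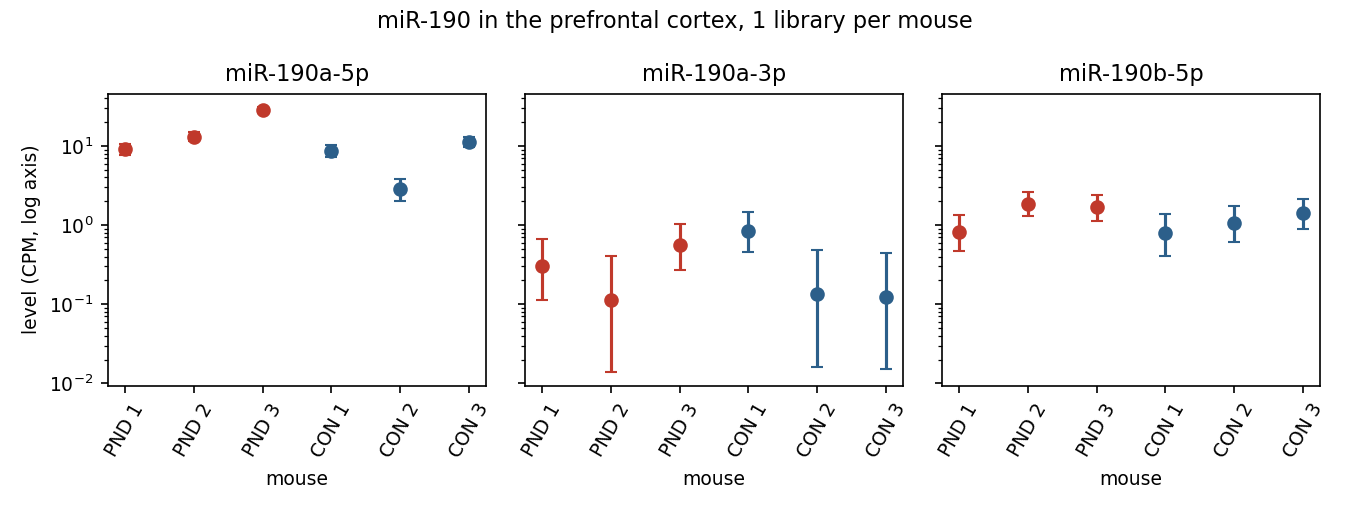
Level of the 3 miR-190 entries in each mouse, in CPM on a log axis, with exact 95% intervals for counting error. miR-190a-5p spans 2.83 to 28.7 CPM with CON mouse 2 lowest and PND mouse 3 highest, whereas miR-190a-3p and miR-190b-5p stay under 2 CPM.

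Within a library the 5p arm of miR-190a exceeded the 3p arm in 6 of 6 mice. The ratio of 5p to 3p was 29.3, 115.5 and 50.9 in PND mice 1 to 3 and 10.2, 21.0 and 91.5 in CON mice 1 to 3. In PND mouse 2, CON mouse 2 and CON mouse 3 the 3p arm had 2 reads, under the floor of 3, so the size of the ratio is poorly fixed there. With 1 CPM added to both arms the mean log2 ratio was 3.07. Without such an addition its mean on the log2 scale was 5.27 ± 1.33 (SD, n = 6), with p = 0.03125 in an exact sign-flip permutation test (two-sided, adjusted p = 0.03125 over the 2 ratios tested), the smallest p that 6 mice allow. As a share of all miR-190a reads, the 3p arm made up 3.30%, 0.858% and 1.93% in PND mice 1 to 3, and in CON mice 1 to 3 it made up 8.97%, 4.55% and 1.08%. CON mouse 1 had the largest share, with an exact 95% interval of 4.86% to 14.8%, which did not meet those of PND mouse 2 (0.104% to 3.07%), PND mouse 3 (0.928% to 3.51%) or CON mouse 3 (0.131% to 3.85%). The log2 ratio averaged 5.80 ± 0.995 (SD, n = 3) for PND and 4.75 ± 1.62 (SD, n = 3) for CON, with overlapping values. Over all libraries the 3p share was 2.68%, close to the median minor arm of 2.69% among 204 hairpins with both arms listed and at least 1000 reads in all.

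miR-190a-5p also exceeded miR-190b-5p in 6 of 6 mice. The ratio was 11.0, 7.00 and 16.97 in PND mice 1 to 3 and 11.0, 2.62 and 7.96 in CON mice 1 to 3. Its mean on the log2 scale was 3.03 ± 0.918 (SD, n = 6), again with p = 0.03125 in the exact sign-flip permutation test (two-sided, adjusted p = 0.03125). With 1 CPM added to both it was 2.31. The share of miR-190b-5p in the reads with this seed was 8.33%, 12.5% and 5.57% in PND mice 1 to 3, and in CON mice 1 to 3 it was 8.33%, 27.6% and 11.2%. CON mouse 2 stood highest, with an exact 95% interval of 16.7% to 40.9%, which met the interval of PND mouse 2 (8.76% to 17.1%) but not those of the other 4 mice, among them PND mouse 3 with 3.79% to 7.85% and CON mouse 3 with 7.21% to 16.3%. Both ratios compare different sequences, and how well each is captured in a library was not measured.

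**Figure D2:**
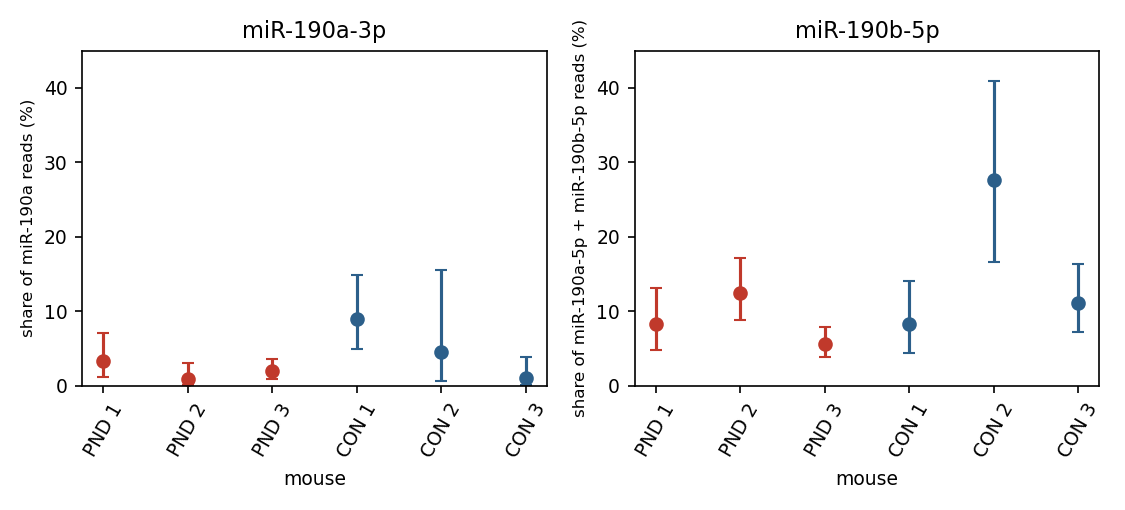
Share of the 3p arm in all miR-190a reads (left) and share of miR-190b-5p in the reads of both 5p arms (right), in percent for each mouse with exact 95% intervals. The 3p share is highest in CON mouse 1 (8.97%) and the miR-190b-5p share is highest in CON mouse 2 (27.6%).

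For the comparison of PND with CON, which the study made to find miRNAs that change with the disorder, the differences of the members had the following sizes. miR-190a-5p averaged 16.97 ± 10.4 CPM (SD, n = 3) with PND against 7.61 ± 4.36 CPM (SD, n = 3) for CON, and its log2 fold change on the log2(CPM + 1) scale was 1.07 (standard error 0.52, from limma fitted over all entries). miR-190b-5p had 1.46 ± 0.563 CPM and 1.10 ± 0.322 CPM, with a log2 fold change of 0.22 (standard error 0.22). miR-190a-3p had 0.329 ± 0.226 CPM and 0.370 ± 0.417 CPM, with a log2 fold change of -0.02 (standard error 0.21). This scale understates the change of entries with few reads, and the log2 ratio of the group means was 1.16, 0.42 and -0.17 in the same order. With TMM factors the log2 fold change of miR-190a-5p was 0.97.

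The difference in miR-190a-5p rested on single mice. Without PND mouse 3 its log2 fold change was 0.63, without CON mouse 2 it was 0.56, and without both, a choice that came from the values themselves, it was 0.12. In the other 4 settings that left out a mouse it was between 1.17 and 1.41. The pooled SD within groups of log2(CPM + 1) was 0.85 for miR-190a-5p, against a median of 0.22 over the 119 entries with a mean of 5 to 25 CPM, of which 4 had a larger value. Its 10.2-fold range over the mice was exceeded by 7 of the 361 entries with a mean of at least 10 CPM, whose median range was 1.48-fold. It belongs to these 361 through the PND group, as its mean for CON was 7.61 CPM.

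One of the 3 members had a log2 fold change above 1, as had 3 of the 1189 entries (0.252%), and none had groups that did not overlap, against 118 of the 1189 entries (9.92%), of which 94 were higher (7.91%) and 24 lower (2.02%) in PND. Among the 361 entries with a mean of at least 10 CPM, miR-190a-5p was the only one with a log2 fold change above 1 (0.277%). This holds for CPM without further scaling, as the value was 0.97 with TMM factors and 0.94 with DESeq2 size factors. miR-190a-5p met the limit of 10 CPM through the PND group, as its mean for CON was 7.61 CPM. In the other direction, miR-200a-3p, miR-200b-3p, miR-200c-3p and miR-429-3p had values between -1.65 and -1.23, all 4 being highest in CON mouse 1. As the members were chosen with this contrast in view, nothing is read from these counts. Over all entries, 1 passed the limits of the study in limma, an unadjusted p under 0.05 and a change of more than 2-fold (0.0841%), and it was higher in PND and has no miRBase name. The study's methods describe p-values from edgeR and fold changes from per-million values. Here the fold limit was put on log2(CPM + 1), so this count and that of the study are not alike. With fold changes of the group means 42 entries passed, and with edgeR 21. In the limma fit an unadjusted p under 0.05 was found for 61 entries (5.13%) and an adjusted p under 0.05 for 5, all of them without a miRBase name and with a mean under 1 CPM.

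Many abundant miRNAs varied over the mice together with miR-190a-5p. Among the other 359 entries that had a miRBase name and averaged 10 CPM or more, 101 had a Pearson correlation of at least 0.9 with it over the 6 libraries, on log2(CPM + 1), and the median of the 359 was 0.698. The 5 with the highest values were miR-148b-3p (0.997), miR-488-3p (0.995), miR-3068-3p (0.994), let-7f-2-3p (0.992) and miR-101a-3p (0.991). They are the highest of 359, all libraries share the scaling to the library total, and no p is attached to them. Spearman's rho was 1.0 for 4 of them and 0.94 for miR-3068-3p. Without PND mouse 3 and CON mouse 2, the mice farthest from the median of miR-190a-5p, Pearson's r was between 0.931 and 0.974 for the 5. With the group means removed it was between 0.988 and 0.998.

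miR-148b-3p belongs to a family known for repressing DNA methyltransferase genes, and it ran from 1049 CPM in CON mouse 2 to 2175 CPM in PND mouse 3. miR-488-3p comes from an intron of the neuronal gene Astn1 and ran from 606 to 1123 CPM between the same mice. miR-101a-3p, known as a repressor of Ezh2, ran from 345 to 1842 CPM, a 5.33-fold range. let-7f-2-3p, the minor arm of a let-7 hairpin, ran from 10.8 to 42.7 CPM, and miR-3068-3p from 65.5 to 142.9 CPM. All 5 were lowest in CON mouse 2 and highest in PND mouse 3, as was miR-190a-5p, but over narrower ranges than its 10.2-fold. As the 5 were picked by their correlation with miR-190a-5p, the shared extreme mice follow largely from that choice.

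miR-128-3p, a miRNA of neurons and the most abundant entry, had the lowest correlation of the 359, at -0.97 (Spearman's rho -0.94). It took 23.2%, 19.0% and 17.6% of the reads in PND mice 1 to 3 and 22.7%, 29.2% and 21.6% in CON mice 1 to 3. Its share was thus largest in the library with the least miR-190a-5p and smallest in the library with the most. Since CPM values of a library sum to 1000000, a larger share of one miRNA lowers the sum of all others, though not each of them. With the size factors of DESeq2, which do not use the library total, the log2 fold change of miR-190a-5p was 0.94. The part of miR-128-3p in the result was not tested.

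**Figure D3:**
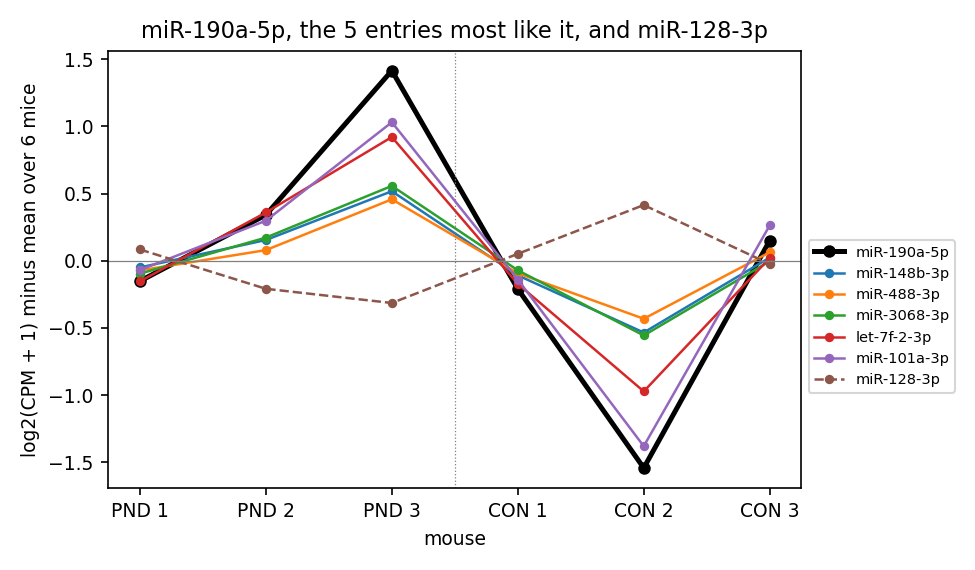
Deviation of log2(CPM + 1) from the mean over the 6 mice for miR-190a-5p, the 5 entries most like it and miR-128-3p (dashed), with the PND mice on the left. All but miR-128-3p peak in PND mouse 3 and are lowest in CON mouse 2, and miR-190a-5p has the widest swing, from -1.54 to 1.41.

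The mature sequences of some of these miRNAs are shown with G and C in capitals, as miR-190a-5p had the lowest G and C content among the 312 entries that averaged 10 CPM or more and had a RefSeq sequence.
miR-190a-5p: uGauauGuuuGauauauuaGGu
miR-101a-3p: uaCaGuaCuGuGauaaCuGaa
let-7f-2-3p: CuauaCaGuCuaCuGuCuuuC
miR-148b-3p: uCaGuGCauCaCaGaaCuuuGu
miR-128-3p: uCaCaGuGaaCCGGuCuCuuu

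G and C made up 22.7% of miR-190a-5p, 27.3% of miR-190a-3p and 31.8% of miR-190b-5p. The median of the 312 entries was 47.8%. For the 92 entries with a sequence and a correlation of at least 0.9 with miR-190a-5p the median was 42.9%. The G and C content was 33.3% in miR-101a-3p, 38.1% in let-7f-2-3p, 40.9% in miR-148b-3p, 42.9% in miR-488-3p, 45.5% in miR-3068-3p and 47.6% in miR-128-3p.

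The level of AU-rich miRNAs moved with the same mice. Among the 24 entries with at most 35% G and C, 21 were lowest in CON mouse 2 and 18 were highest in PND mouse 3. Among the 114 entries above 50%, 77 were lowest in CON mouse 2 and 32 were highest in PND mouse 3. The median deviation from the mean over mice, on log2(CPM + 1), was -0.57 in CON mouse 2 and 0.35 in PND mouse 3 for the AU-rich entries, and -0.20 and 0.03 for the entries above 50%. The deviation of miR-190a-5p was -1.54 and 1.41 in these mice.

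The median log2 fold change of PND against CON was 0.30 in the AU-rich entries, 0.15 in the 174 entries above 35% and up to 50%, and 0.08 in the 114 above 50%. The AU-rich class includes miR-190a-5p, whose value of 1.07 was the highest of its 24 entries, the next being 0.84. miR-190a-5p met the limit of 10 CPM for these entries through the PND group, as its mean for CON was 7.61 CPM. miR-153-3p, from an intron of Ptprn2 and just above this class at 36.4% G and C, had 0.93 (standard error 0.61). It ran from 40.7 CPM in CON mouse 2 to 328.6 CPM in PND mouse 3 and correlated with miR-190a-5p at 0.928. Across the 312 entries Spearman's rho of G and C content and log2 fold change was -0.27, and it was -0.02 without PND mouse 3 and CON mouse 2. The same relation was seen between mice of 1 group. In all 6 pairs of mice within a group, rho of G and C content and the log2 difference (0.167 to 0.393 in size) had the opposite sign to the difference in miR-190a-5p, and these pairs share mice. When a line on G and C content was taken out of each library, which was likewise decided on with the values in view, the log2 fold change of miR-190a-5p was 0.79 (standard error 0.34). The line has an intercept, so each library's mean shift was taken out together with the slope. With factors that change only the scale of a library, the log2 fold change was 0.97 (TMM) and 0.94 (DESeq2). The part of base composition in the result was not tested.

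**Figure D4:**
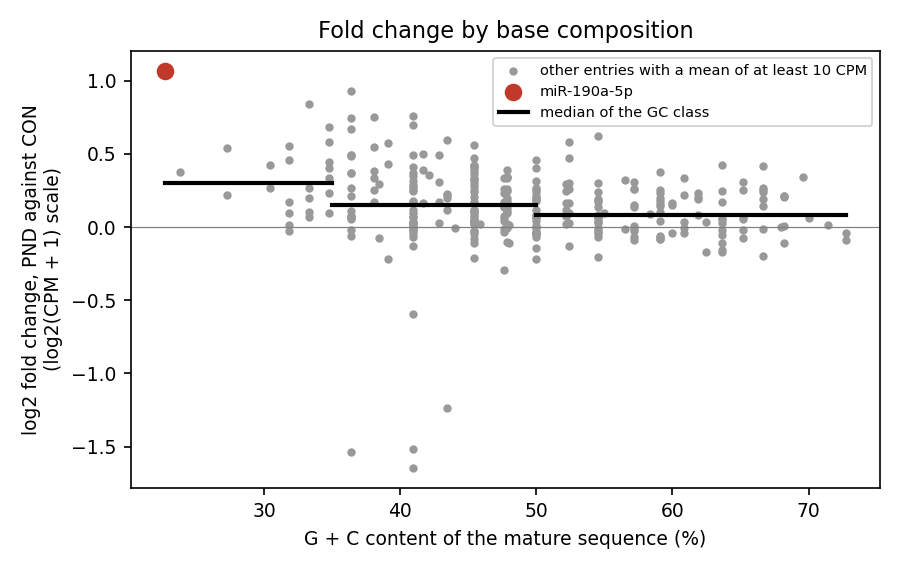
Log2 fold change of PND against CON on the log2(CPM + 1) scale by the G and C content of the mature sequence, in percent, for 312 entries with a mean of at least 10 CPM, with the median of each of 3 classes as a black line. miR-190a-5p lies at the upper left (22.7%, 1.07), and the class medians fall from 0.30 to 0.15 and 0.08.

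The tissue label was checked against marker miRNAs. The 6 neuronal and cortical markers, among them miR-124-3p, miR-128-3p and both arms of miR-9, summed to 286963 to 321419 CPM in the PND mice and 312998 to 377747 CPM in the CON mice, and none was at 0. Most of each sum was miR-128-3p. Of the 6, 4 had a log2 fold change above 0, while miR-128-3p (-0.29) and miR-132-3p (-0.07) were below 0. The 8 epithelial markers of the miR-200 and miR-183 families summed to 145 to 182 CPM in the PND mice and 67.0 to 1646 CPM in the CON mice, with the highest sum in CON mouse 1, the mouse with the largest 3p share, and the lowest in CON mouse 2. Their part in the differences of miR-190 was not tested. Of these 8 markers only miR-141-3p was at 0 in a library. In CON mouse 2 the miR-183 family was low, with miR-182-5p at 15.7 CPM (51.5 to 77.9 CPM in the PND mice) and miR-183-5p at 17.8 CPM (50.3 to 63.5 CPM). There miR-200a-3p (12.2 CPM) and miR-200b-3p (15.7 CPM) were near their PND levels of 12.7 to 19.4 CPM and 10.8 to 13.4 CPM. The 4 markers of microglia and leukocytes summed to 299 to 331 CPM and 279 to 328 CPM, the 2 of oligodendrocytes to 1567 to 1756 CPM and 1382 to 1597 CPM, and the 2 of endothelium to 13326 to 13992 CPM and 11991 to 14372 CPM. Most of the sum for microglia and leukocytes was miR-150-5p, with 264 to 312 CPM over all mice and a log2 fold change of 0.05. miR-142a-3p ran from 4.24 CPM in CON mouse 2 to 16.9 CPM in PND mouse 3 and correlated with miR-190a-5p at 0.93. The log2 fold change was 0.44 for miR-142a-3p and 0.51 for miR-142a-5p, but -0.23 for miR-223-3p. The 3 markers of red blood cells summed to 47.0 to 99.5 CPM and 31.9 to 54.5 CPM, the 3 of muscle to 502 to 601 CPM and 413 to 593 CPM, and miR-122-5p of liver had 11.5 to 14.1 CPM and 11.1 to 14.0 CPM. Of the red cell markers, miR-451a had 40.9 CPM in PND mouse 1 and 0.621 to 3.08 CPM in the other mice. Without CON mouse 1 the log2 fold change of miR-190a-5p was 1.23 and that of miR-190a-3p was 0.22. In bulk tissue, fewer cells of a type and less RNA per cell cannot be told apart.

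miR-190a was set beside other miRNAs that lie in introns of protein-coding genes active in brain. Of 42 arms on this list, 40 were listed in the files. In limma 2 of the 40 had an unadjusted p under 0.05, both higher in PND, against 5.13% of all entries, and none passed both limits or had an adjusted p under 0.05. They were the arms of miR-33, hosted by Srebf2, a master gene of cholesterol synthesis. miR-33-5p averaged 4.81 ± 1.10 CPM (SD, n = 3) with PND and 2.68 ± 1.06 CPM for CON (log2 fold change 0.68, adjusted p = 0.77, limma). miR-33-3p had 2.51 ± 1.12 CPM and 1.11 ± 0.457 CPM (log2 fold change 0.71, adjusted p = 0.77). Both arms were highest in PND mouse 3 and lowest in CON mouse 2, as was miR-190a-5p, and correlated with it at 0.951 (miR-33-5p) and 0.972 (miR-33-3p). Many entries had these extreme mice, among them 79 of the 174 with at least 10 CPM and above 35% and up to 50% G and C. The median log2 fold change of the 40 was 0.08, against 0.05 over all entries, and 30 of the 40 were above 0, against 65.3% of all entries.

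Other arms on the list with high correlations to miR-190a-5p included, besides miR-488-3p and the arms of miR-33, miR-340-5p from an intron of Rnf130 (0.990) and miR-140-3p from an intron of Wwp2 (0.988). miR-218-5p of Slit2 and Slit3 (0.974) and miR-103-3p of Pank genes (0.966) were also among them. G and C made up 27.3% of miR-340-5p but 57.1% of miR-140-3p. miR-335-5p, hosted by the imprinted gene Mest, averaged 285 ± 55.6 CPM (SD, n = 3) with PND and 214 ± 52.9 CPM for CON, with a correlation of 0.973. Other arms of these hairpins had lower correlations. It was 0.36 for miR-340-3p (means of 590 CPM with PND and 581 CPM for CON) and 0.52 for miR-335-3p (1100 and 1045 CPM). For miR-140-5p it was 0.85 and for miR-488-5p 0.29. It was -0.22 for miR-218-1-3p, -0.32 for miR-218-2-3p and 0.32 for miR-103-2-5p, which averaged under 1 CPM. miR-26a-5p, from introns of Ctdsp genes, had 55683 ± 2563 CPM and 58493 ± 3099 CPM and a correlation of -0.79. The hosts of these miRNAs thus differed, and the mRNA of Tln2 was not analysed here.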

How the data were processed

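Total RNA of the prefrontal cortex was made into small RNA libraries, 1 per mouse and 3 mice per group. Per the study's methods, the authors kept reads of 18 to 40 nt, aligned them with Bowtie and assigned them to miRBase miRNAs. The submitters' processing notes name Bowtie 0.12.2 and the builds mm8 and mm9, without a role. The labels name a library kit for total RNA and the methods a kit for small RNA. The methods state TMM scaling, but the deposited CPM values sum to 1000000 in each library and every value was a whole number of reads, so TMM factors were not visible in them. The tolerance was 0.02 reads, or 1e-06 of the count where that is larger, which the most abundant entries pass at any value. Reads were recovered from these steps. The depth was 14849461 to 19471226 reads, and 3 reads (0.154 to 0.202 CPM) were taken as the floor. The libraries carry no molecular identifiers.

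Log2(CPM + 1) of all 1189 entries was fitted with limma 3.58.1 (R 4.3.3), with Benjamini-Hochberg adjustment over all entries. The limits were an unadjusted p under 0.05 and more than 2-fold. Within-library ratios were tested over mice with an exact sign-flip permutation test (two-sided). The entries named were the members, any entry with their seed, the 5 entries with a miRBase name and a mean of 10 CPM or more that had the highest Pearson correlation to miR-190a-5p, marker miRNAs of cell types and a list of miRNAs in introns of brain-expressed genes. Which arms of that list are given with values was decided after these were seen. Alternatives were a pseudocount of 0.1, filters, TMM and DESeq2 size factors, fold changes of group means, a replicate block, edgeR 4.0.16 (quasi-likelihood) and DESeq2 1.42.0 applied to recovered reads, and fits without each mouse in turn. Scripts were tested on simulated data. Members, lists and tests were chosen with earlier results of these data known. Sequences and positions are from RefSeq (GRCm38.p6) and GENCODE M21, and 997 of the 1189 entries matched a RefSeq sequence. Each sample is labelled as a separate mouse, but no extraction or sequencing batch is given, so p-values cover only the spread between these mice.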

Additional observations from a re-analysis of the deposited data

How the results depend on the processing

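The log2 fold change of miR-190a-5p stayed above 0 under all 17 alternatives, but it was 0.12 with PND mouse 3 and CON mouse 2 left out together, where rho of G and C content and log2 fold change was -0.017. The log2 ratio of miR-190a-5p to miR-190a-3p was 5.80 in the PND mice alone and 4.75 in the CON mice alone, 4.96 to 5.66 with 1 mouse left out, 3.07 with a pseudocount of 1 CPM and 4.73 with 0.1 CPM. The log2 ratio of miR-190a-5p to miR-190b-5p was 3.45 in the PND mice alone, 2.61 in the CON mice alone, 2.82 to 3.36 with 1 mouse left out and 2.31 with a pseudocount of 1 CPM. With 3 or 5 mice the exact permutation test cannot reach p under 0.05 (smallest p = 0.25 and 0.0625). The number of entries past both limits was 1 in the limma fit, 22 with a pseudocount of 0.1, 42 with fold changes of the group means, 21 with edgeR, 11 with DESeq2, 0 among entries with a mean of at least 10 CPM, 0 after the correction for G and C content and 0 to 1 with 1 mouse left out, being 0 without PND mouse 2 or CON mouse 1. The cause of these differences in count was not tested. With the replicate number as a block it was 2, and the standard error of miR-190a-5p was 0.36, but the numbers were not taken to pair the mice, as the deviations of mice with the same number correlated at -0.13, 0.12 and 0.51. Depth limits miR-190a-3p most, with 35 reads in all libraries.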

Other observations

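miR-190b-3p, the other arm of the paralog, was also listed. It had 1 read each in PND mouse 2 and PND mouse 3 and 0 reads in the other 4 libraries, under the level of 3 reads in every library. The arm ratio of miR-190b can therefore not be given at this depth.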
